A study of Arabidopsis thaliana with 6 samples.

Results

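The RPD3-type histone deacetylase genes of Arabidopsis thaliana were examined in the H3K9Ac peak lists of etiolated ein2-5 seedlings. The family was taken as the 10 genes HDA2, HDA5, HDA6, HDA7, HDA8, HDA9, HDA14, HDA15, HDA18 and HDA19, out of 27444 protein coding genes on the nuclear chromosomes. A gene was counted as marked when at least 1 bp of a peak lay in its body or in the 500 bp upstream of its annotated start. The rule uses gene names and positions and no measured value. In air, 8 of the 10 genes carried an H3K9Ac peak, beside 60.9% of all coding genes. In ethylene 6 did, beside 46.0%.

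H3K9Ac was measured by chromatin immunoprecipitation and sequencing (ChIP-seq) in whole seedlings grown in the dark for 3 days. All groups carried ein2-5, the one allele that the labels name and a loss-of-function allele of EIN2, the membrane protein that carries the ethylene signal from the receptors towards the nucleus. The air group received hydrocarbon-free air for 4 h, and the ethylene group received the same air with 10 ppm ethylene for 4 h. Each group had 2 H3K9Ac libraries and 1 control library, which the labels call IgG in the title and Protein G beads in the antibody field. Wild-type seedlings were not analysed here, so every value below comes from plants that lack the normal ethylene response. The peak lists hold no markers of tissue or genotype, so neither label was checked against the data.

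The authors pooled the 2 H3K9Ac libraries of a treatment before calling peaks. There is therefore 1 list per treatment, no spread between replicates, and no test of air against ethylene. The air list held 18314 peaks from 45582654 H3K9Ac tags and the ethylene list 12864 peaks from 43572576, a tag being a sequenced fragment end of which 1 per position and strand was kept. The controls differed more in depth, with 13726993 tags in air and 4354374 in ethylene. The ethylene list is shorter and its peaks narrower, with a median length of 423 bp against 578 bp in air, and the part of control depth in this cannot be told apart from that of the treatment.

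Histone deacetylases of the RPD3 type remove acetyl groups from lysines of the histone tails and are named after the yeast repressor Rpd3. In plants they act in corepressor complexes with SIN3-like scaffolds, WD40 proteins of the MSI group and the TOPLESS family, and they counteract the acetyltransferases that set marks such as H3K9Ac. H3K9Ac itself lies just downstream of the start of transcribed genes. The family is usually split into class I (HDA6, HDA7, HDA9 and HDA19), class II (here HDA5, HDA8, HDA14, HDA15 and HDA18) and HDA2, which is set apart from both.

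The sequence under the air summit, the position where most tags overlap, is shown for the marked genes because it shows where in the gene the peak is highest. The summit does not place the mark to the base, since tags were extended to 200 bp. Air and ethylene summits of a gene also lay up to 40 bp apart. Sequences were read from TAIR10.1, 5′ to 3′ along the transcript, with at most 60 bases on either side of the summit and at most 30 bases of untranslated region. For the first 5 genes, capitals mark coding bases.
HDA6: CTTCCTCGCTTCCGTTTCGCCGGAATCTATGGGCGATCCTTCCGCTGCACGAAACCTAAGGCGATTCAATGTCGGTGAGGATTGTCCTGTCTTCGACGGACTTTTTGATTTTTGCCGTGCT
HDA5: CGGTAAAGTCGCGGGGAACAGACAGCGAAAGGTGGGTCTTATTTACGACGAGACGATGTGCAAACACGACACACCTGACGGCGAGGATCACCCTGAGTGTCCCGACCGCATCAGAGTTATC
HDA8: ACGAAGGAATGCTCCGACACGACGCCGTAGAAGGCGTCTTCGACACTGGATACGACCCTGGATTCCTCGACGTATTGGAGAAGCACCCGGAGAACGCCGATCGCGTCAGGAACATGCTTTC
HDA2: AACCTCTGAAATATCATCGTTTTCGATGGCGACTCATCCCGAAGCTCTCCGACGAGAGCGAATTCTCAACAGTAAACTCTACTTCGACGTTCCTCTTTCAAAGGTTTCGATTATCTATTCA
HDA9: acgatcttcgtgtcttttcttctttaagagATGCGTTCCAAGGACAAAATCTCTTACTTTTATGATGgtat

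In HDA6 (chr5:25317856-25317976, minus strand), HDA5 (chr5:24570750-24570870, minus strand), HDA8 (chr1:2672558-2672678, plus strand) and HDA2 (chr5:9101362-9101482, minus strand) all 121 bases are coding and the summit is base 61. In HDA9 (chr3:16229712-16229782, minus strand) the summit is base 11 of the 71 shown, in the 5′ untranslated region and 20 bases before the start codon. For HDA19, HDA15 and HDA14, whose summits fell in the first intron, capitals mark instead the 21 bases around the summit.
HDA19: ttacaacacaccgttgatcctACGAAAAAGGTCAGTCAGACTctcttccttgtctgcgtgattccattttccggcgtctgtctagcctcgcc
HDA15: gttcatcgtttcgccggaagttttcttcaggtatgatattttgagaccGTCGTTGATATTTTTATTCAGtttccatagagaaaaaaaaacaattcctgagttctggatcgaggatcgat
HDA14: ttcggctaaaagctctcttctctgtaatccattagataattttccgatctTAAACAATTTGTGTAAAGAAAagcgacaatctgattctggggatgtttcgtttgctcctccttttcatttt

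These lie at chr4:17899242-17899333 on the minus strand for HDA19, chr3:6361265-6361383 on the plus strand for HDA15 and chr4:16105241-16105361 on the minus strand for HDA14. In HDA19 and HDA15 that first intron interrupts the 5′ untranslated region, whereas in HDA14 it follows the start codon. The GC content of the 201 bp around the summit ranged from 31.8% to 56.7% over the 8 genes in air, with a median of 45.0%, beside a median of 43.8% over all marked coding genes.

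The share of marked genes was set beside that of all coding genes, counted in the same way. In air 60.9% of coding genes were marked and in ethylene 46.0%, against 8 and 6 of the 10 deacetylase genes. HDA14 and HDA15 were marked in air and not in ethylene, as were 15.1% of coding genes. HDA7 and HDA18 were marked in neither list, as were 38.9% of coding genes. No member was marked in ethylene alone. These counts are a description of 10 genes, and no test was run on them.

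**Figure D1:**
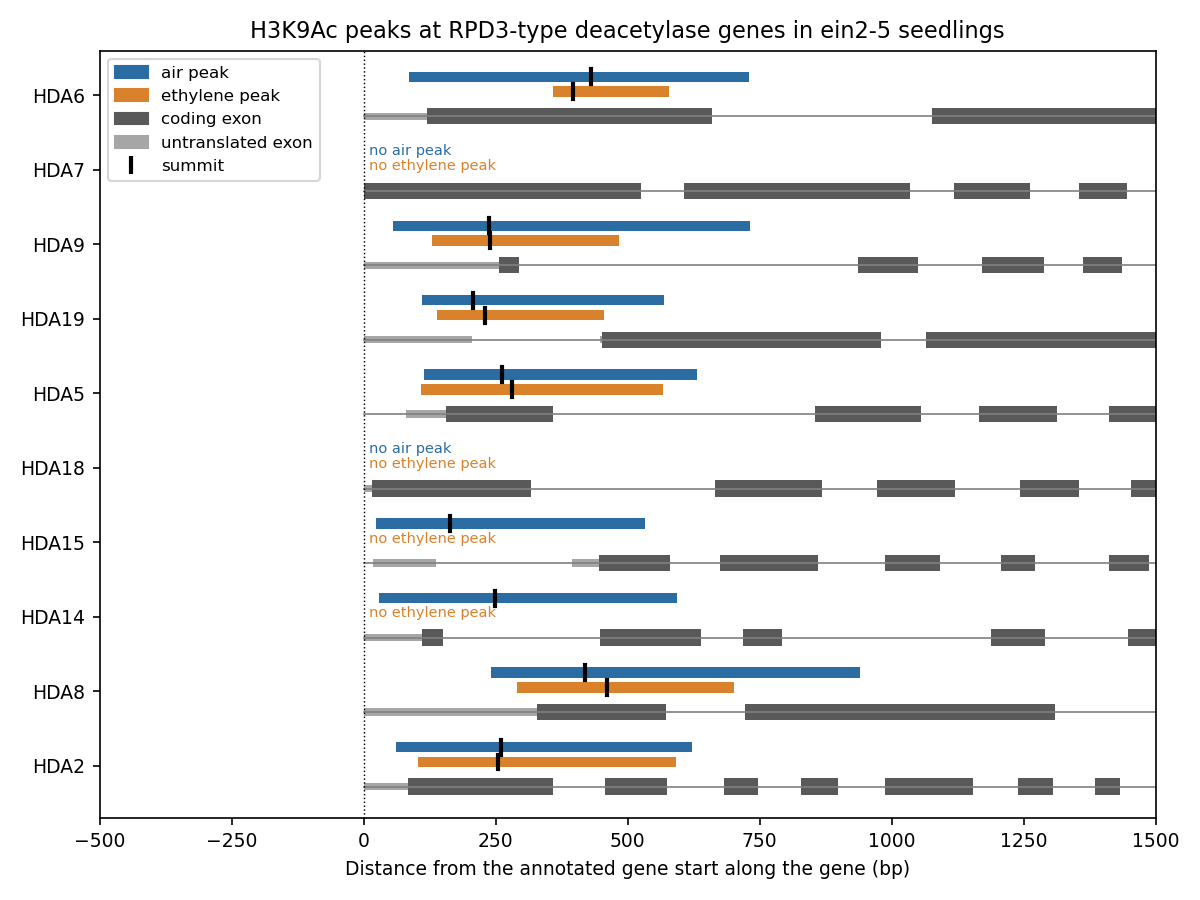
H3K9Ac peaks at the 10 RPD3-type deacetylase genes, drawn by distance in bp from the annotated gene start along the gene (x axis), with 1 row per gene. Blue bars are air peaks, orange bars ethylene peaks, black ticks summits, and grey boxes exons of the transcript with the longest coding sequence. All 8 air peaks and all 6 ethylene peaks begin downstream of the gene start.

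Among the class I genes, HDA6, HDA9 and HDA19 were marked in both lists. HDA6 (AT5G63110, chr5:25315506-25318347, minus strand) is a deacetylase known from the silencing of transposons, transgenes and ribosomal RNA genes. Its air peak spanned 643 bp (chr5:25317619-25318261) with the summit at 25317916, in the coding part of exon 1 and 431 bp from the gene start. Its ethylene peak spanned 219 bp (chr5:25317770-25317988) with the summit at 25317951, or 396 bp from the start. The summit held 251 tags in air and 254 in ethylene, with 95% exact counting intervals of 231 to 270 and 234 to 273. At HDA6 the peak was much shorter in ethylene while the summit held almost the same number of tags.

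Because 1 tag is kept per position and strand and tags are extended to 200 bp, no more than 400 tags can overlap at a point. The intervals are Clopper-Pearson intervals for a share of these 400 positions. They treat the positions as independent and equally likely, and they cover counting error under that model only. They do not cover the variation between seedlings or libraries. The fold enrichment that the authors' peak caller gives, the summit over its local background, was 2.02 in air and 2.16 in ethylene at HDA6. No counting interval was computed for fold enrichment, so orders of genes by it are descriptions of the point values.

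HDA9 (AT3G44680, chr3:16226519-16230009, minus strand) encodes a deacetylase that works with the SANT-domain protein POWERDRESS (PWR) and is known for delaying flowering. Its air peak covered 677 bp (chr3:16229278-16229954, summit 16229772) and its ethylene peak 354 bp (chr3:16229526-16229879, summit 16229769). Both summits lay in the 5′ untranslated part of exon 1, 237 and 240 bp from the gene start and 3 bp apart. The summit held 318 tags in air (301 to 333) and 282 in ethylene (263 to 300). These raw intervals narrowly missed each other, but they are not scaled to the 45582654 and 43572576 tags of the lists. Fold enrichment was 2.85 in air and 2.03 in ethylene, the largest difference downward among the 6 members marked in both lists.

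HDA19 (AT4G38130, chr4:17896278-17899509, minus strand) is a widely used repressor of hormone, defence and seed genes and is bound by the SIN3-like and TOPLESS corepressors. Its air peak measured 458 bp (chr4:17898942-17899399, summit 17899302) and its ethylene peak 318 bp (chr4:17899054-17899371, summit 17899280). The summits lay 207 and 229 bp from the gene start, in the intron of the 5′ untranslated region. The summit held 238 tags in air (218 to 257) and 222 in ethylene (202 to 242), and these intervals overlapped. HDA19 had the lowest fold enrichment of the family in air, 1.91, and a value of 2.42 in ethylene, where the local background was 1.18 times the genome background against 1.60 times in air. It was also the weakest member by significance in air, with a −log10 p-value of 6.64, rank 13813 of the 18314 air peaks.

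HDA7 (AT5G35600, chr5:13770121-13771712, minus strand), the remaining class I gene, carried no peak. It is the shortest member at 1592 bp in 5 exons, and its annotated start is also its start codon. The nearest peaks lay past its 3′ end over the neighbouring PAA1, a proteasome subunit gene, with 2285 bases between in air and 2375 in ethylene. Every 51-base word in HDA7 occurs once in the genome.

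Among the class II genes, HDA5 and HDA8 were marked in both lists, HDA14 and HDA15 in air, and HDA18 in neither. HDA5 (AT5G61060, chr5:24566783-24571072, minus strand) is a deacetylase that acts with HDA6 in the control of flowering. Its peaks measured 516 bp in air (chr5:24570442-24570957, summit 24570810) and 459 bp in ethylene (chr5:24570506-24570964, summit 24570791). The summits lay in the coding part of exon 1, 262 and 281 bp from the gene start. The summit held 260 tags in air (240 to 279) and 258 in ethylene (238 to 277), and fold enrichment was 2.33 and 2.43.

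HDA18 (AT5G61070, chr5:24571095-24574387, minus strand), known for the patterning of root epidermal cells, lies directly upstream of HDA5 on the same strand, with 22 bases between the annotated genes. No peak touched its 3293 bp or the 500 bp before its start. The closest peak was that of HDA5, which lay 137 bases past the 3′ end of HDA18 in air and 130 bases past it in ethylene. Of the 51-base words in HDA18, 99.2% occur once in the genome, and in HDA5 99.4%, with all of the first 600 words unique in both genes. A peak was thus called at HDA5 and none at HDA18, and the H3K9Ac level at HDA18 is not given by the lists.

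The 300 bp promoter windows of HDA5 and HDA18, from 250 bases before to 50 bases after the gene start, share a pair of runs of 10 or more bases other than runs of 1 base. They are shown because they are the longest stretches that the marked and the unmarked neighbour have in common there.
First shared run: CTTTGATTGGTTG
Second shared run: TTTCCCTCCAAAGAA

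The first run lies at chr5:24571125-24571137 for HDA5 and chr5:24574478-24574490 for HDA18, and was found in 3 of the 27444 promoter windows of coding genes (0.0109%). At HDA5 it falls inside the annotated 3′ end of HDA18. The second lies at chr5:24571092-24571106 for HDA5 and chr5:24574445-24574459 for HDA18, and was found in 2 windows (0.00729%). At HDA5 most of it also falls inside the annotated 3′ end of HDA18. A shared run is a description of the letters and not of a binding site.

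HDA15 (AT3G18520, chr3:6361159-6365705, plus strand), the longest member at 4547 bp, encodes a deacetylase that is recruited by the phytochrome interacting factor PIF3 in the dark to chlorophyll and photosynthesis genes. Its air peak covered 509 bp (chr3:6361183-6361691, summit 6361323), with the summit 164 bp from the gene start, the closest of the family. The summit held 268 tags (249 to 286) at a fold enrichment of 2.46 and a −log10 p-value of 12.4. No ethylene peak touched the gene, although its air peak was 7797th in the air list by p-value and so stronger than those of HDA5, HDA6 and HDA19, which were called in both lists.

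HDA14 (AT4G33470, chr4:16102595-16105550, minus strand) encodes a deacetylase found in plastids. Its air peak covered 565 bp (chr4:16104958-16105522, summit 16105301), with the summit 249 bp from the gene start. The summit held 226 tags (206 to 246), the fewest of the family in air, at a fold enrichment of 2.47 and a −log10 p-value of 11.0. The background around it was low, at 1.17 times the genome background. In ethylene the nearest peak lay 2444 bases before its start, over AT4G33480.

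A gene without a peak is not a gene without tags, because the lists hold only regions that passed the caller's threshold. The ethylene list reached down to 150 tags at the summit and the air list to 124. To place HDA15 and HDA14, coding genes with a similar air peak were counted, within 10 tags and 0.1 of fold enrichment, a comparison chosen after the values were seen. Of 566 genes with an air peak like that of HDA15, 81.4% also had an ethylene peak and 105 had none. Of 249 genes with an air peak like that of HDA14, 65.9% also had an ethylene peak. For the 6 genes marked in both lists, the share ran from 64.5% (HDA19) to 96.6% (HDA8).

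HDA8 (AT1G08460, chr1:2672198-2674721, plus strand), a compact gene of 3 exons, held the most summit tags of the family in both lists. The air peak covered 698 bp (chr1:2672440-2673137, summit 2672618) and the ethylene peak 411 bp (chr1:2672488-2672898, summit 2672658). The summits lay 420 and 460 bp from the gene start in the coding part of exon 1, after a long 5′ untranslated region that put the start codon at 329 bp. The summit held 354 tags in air (340 to 366) and 341 in ethylene (326 to 354). In air 94.7% of marked coding genes had fewer tags at their strongest summit than HDA8, and in ethylene 88.3% did. By fold enrichment HDA8 stood lower, at 2.91 in air, above 82.4% of marked coding genes, and 2.31 in ethylene, above 56.9%.

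HDA8 starts opposite CRT3 (AT1G08450), which encodes calreticulin 3, a chaperone of the endoplasmic reticulum. The air peak of HDA8 reached 18 bp into the upstream window of CRT3, and no other peak of a member fell in the window of a further gene. The ethylene peak did not reach it. CRT3 had its own peak, with 214 tags in air and 213 in ethylene, which stopped 12 bases short of the 500 bp upstream window of HDA8 in air and 226 bases short in ethylene.

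HDA2 (AT5G26040, chr5:9099152-9101682, minus strand) had peaks of similar extent in both lists, with an air peak of 561 bp (chr5:9101061-9101621, summit 9101422) and an ethylene peak of 490 bp (chr5:9101091-9101580, summit 9101427). The summits lay 260 and 255 bp from the gene start in the coding part of exon 1. The HDA2 summit held 309 tags in air (291 to 325) and 318 in ethylene (301 to 333). HDA2 had the highest fold enrichment of the family in both lists, 3.03 in air and 2.52 in ethylene. In ethylene HDA5 (2.43) and HDA19 (2.42) were close to it, and no counting interval separates these values. The −log10 p-value of HDA2 was 20.1 in air, second to HDA8 with 21.0, and 5.91 in ethylene, the first of the family. These p-values cannot be compared between the lists, because the signal was scaled to controls of 13726993 tags in air and 4354374 in ethylene.

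**Figure D2:**
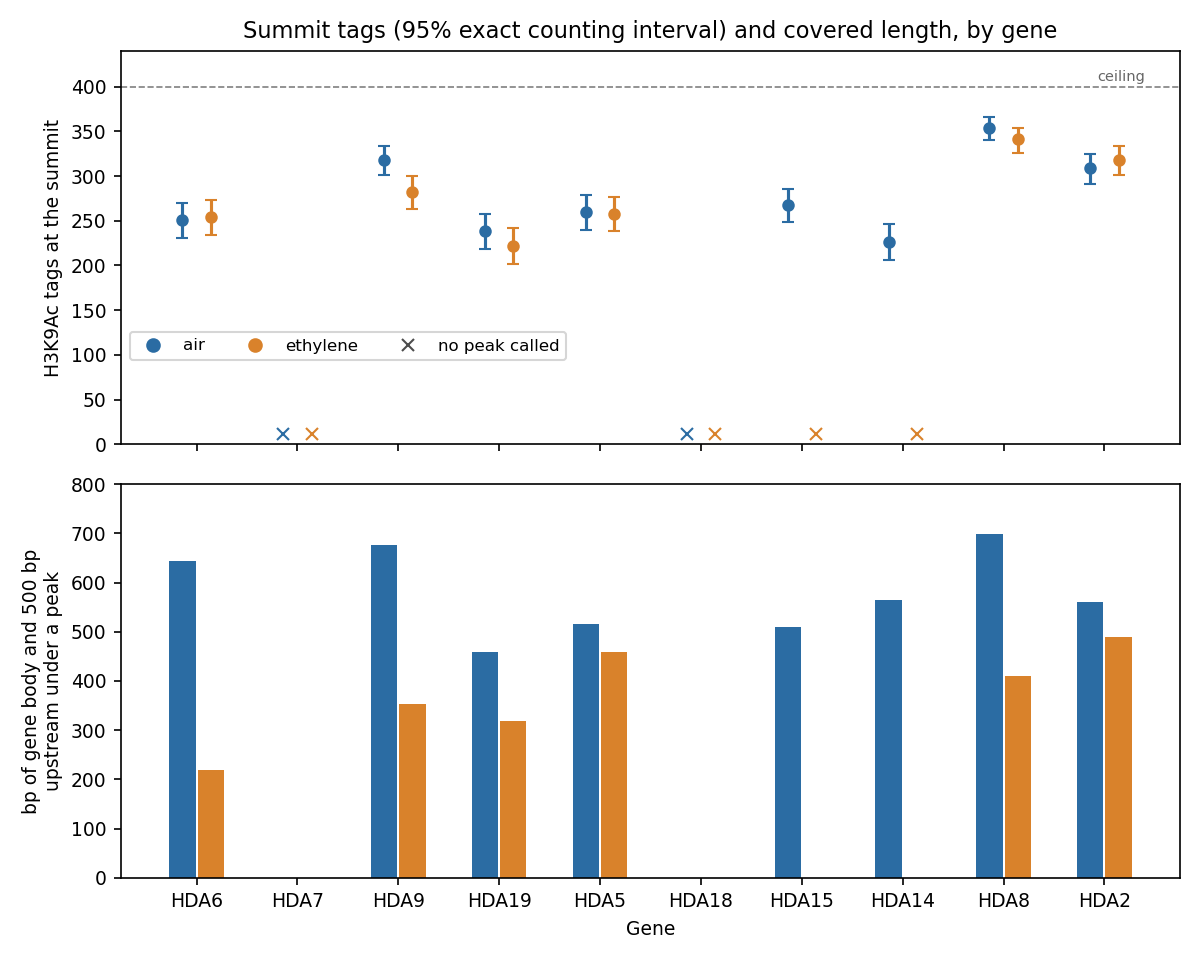
H3K9Ac tags at the summit (upper panel, number of tags, with 95% exact counting intervals as bars and the ceiling of 400 as a dashed line) and bp of the gene body and 500 bp upstream under a peak (lower panel) for the 10 genes. Blue is air, orange is ethylene, and crosses near 0 mark genes with no called peak, not a measured level. HDA8 is highest in both lists with 354 and 341 tags, and the ethylene bar is the shorter one in all 6 genes marked in both.

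The genes were ordered by summit tags, and neighbours in the order were compared after correction for the ceiling, which turns the share of occupied positions into the number of tags expected without the limit. In air the order was HDA8, HDA9, HDA2, HDA15, HDA5, HDA6, HDA19 and HDA14. HDA8 exceeded HDA9 by a ratio of 1.36 (95% counting interval 1.15 to 1.63), and HDA2 exceeded HDA15 by 1.34 (1.12 to 1.59). The other 5 neighbouring pairs had ratios of 1.06 to 1.09 whose intervals included 1. Only neighbours in the sorted order, and the first and last gene, were compared, so these steps do not define groups. Corrected tags in air fell from 865 at HDA8 to 592 at HDA2, 443 at HDA15 and 333 at HDA14.

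In ethylene the order was HDA8, HDA2, HDA9, HDA5, HDA6 and HDA19. The step from HDA8 to HDA2 had a ratio of 1.21 (1.02 to 1.44), that from HDA2 to HDA9 1.30 (1.09 to 1.54) and that from HDA6 to HDA19 1.24 (1.03 to 1.50). HDA9 against HDA5, at 1.18 (0.987 to 1.41), and HDA5 against HDA6, at 1.03 (0.858 to 1.23), were not separated. From the first gene to the last the ratio was 2.60 (2.16 to 3.12) in air and 2.36 (1.97 to 2.84) in ethylene. HDA9 thus stood beside HDA2 in air and below it in ethylene.

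Summit tags in ethylene were then divided by those in air for the 6 genes marked in both lists, corrected for the ceiling and taken per H3K9Ac tag used. HDA9 had a ratio of 0.806, with a counting interval of 0.677 to 0.959. The intervals of the other genes included 1, with ratios of 0.926 for HDA8 (0.776 to 1.10), 0.937 for HDA19 (0.776 to 1.13), 1.03 for HDA5 (0.862 to 1.24), 1.07 for HDA6 (0.890 to 1.28) and 1.12 for HDA2 (0.942 to 1.33). Over all 11700 regions with 1 peak in each list the median ratio was 1.04, with quartiles of 0.983 and 1.10.

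HDA9 was below all but 56 of those 11700 regions (0.479%). It is the lowest of 6 ratios and was picked out after the values were seen, and the ratio compares a pair of pooled lists and not the treatments. Without the correction for the ceiling its ratio was 0.928. Of the regions, 8.97% were lower than HDA8 and 11.2% lower than HDA19, while HDA2 was the highest of the 6, above 80.9% of regions.

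**Figure D3:**
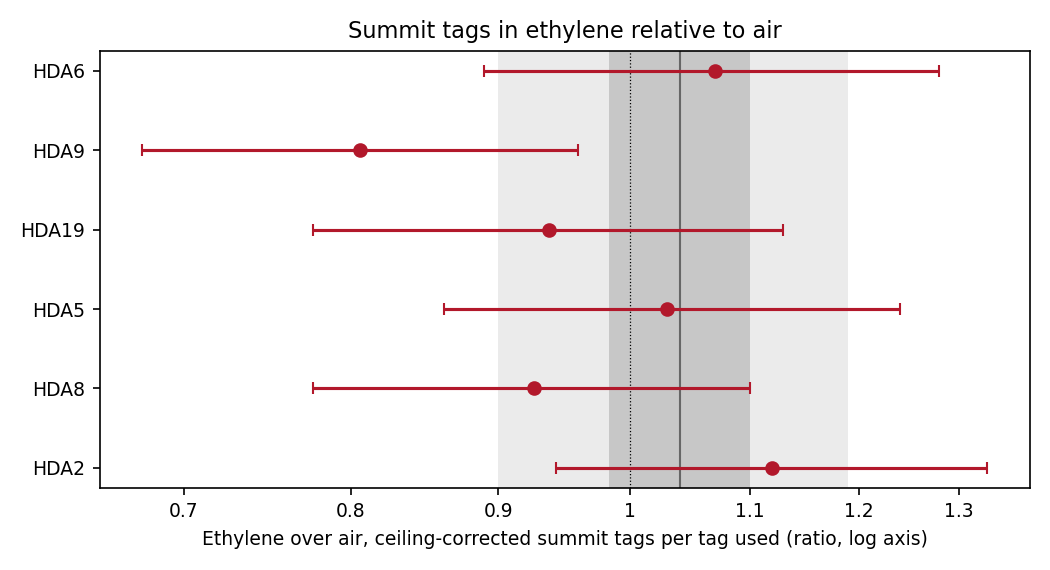
Ratio of summit tags in ethylene to those in air (x axis, log scale), corrected for the ceiling and taken per tag used, for the 6 genes marked in both lists. Points are ratios with 95% counting intervals, the dark band holds the middle quartiles and the light band the 5th to 95th percentile (0.900 to 1.19) of 11700 regions, the solid line is their median and the dotted line is 1. HDA9, at 0.806, is the one gene whose interval lies below 1.

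Every one of the 6 peaks was shorter in ethylene. Over all regions the length ratio of ethylene to air had a median of 0.685 and an upper quartile of 0.818. HDA6 was shortened most, from 643 to 219 bp or a ratio of 0.341, and 3.96% of regions had a lower ratio. The ratio was 0.523 at HDA9, 0.589 at HDA8 and 0.694 at HDA19. HDA5 and HDA2 differed least in length, with ratios of 0.890 and 0.873, above 86.4% and 84.2% of regions. The order by length was not the order by tags, since HDA6, with the lowest length ratio, had a tag ratio of 1.07.

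Fold enrichment differed in both directions between the lists. The difference, ethylene minus air, was -0.820 at HDA9, -0.601 at HDA8 and -0.513 at HDA2. It was 0.503 at HDA19, 0.147 at HDA6 and 0.103 at HDA5. Over all regions the median difference was -0.250, with quartiles of -0.643 and 0.122, so HDA8 and HDA2 lay between the quartiles. HDA9 lay above 16.5% of regions and HDA19 above 92.3%. The local background under the summit is part of the fold enrichment. At HDA9 this background stood at 1.83 times the genome background in ethylene against 1.43 times in air. The part of control depth in these differences was not tested, and no counting interval was computed for them.

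**Figure D4:**
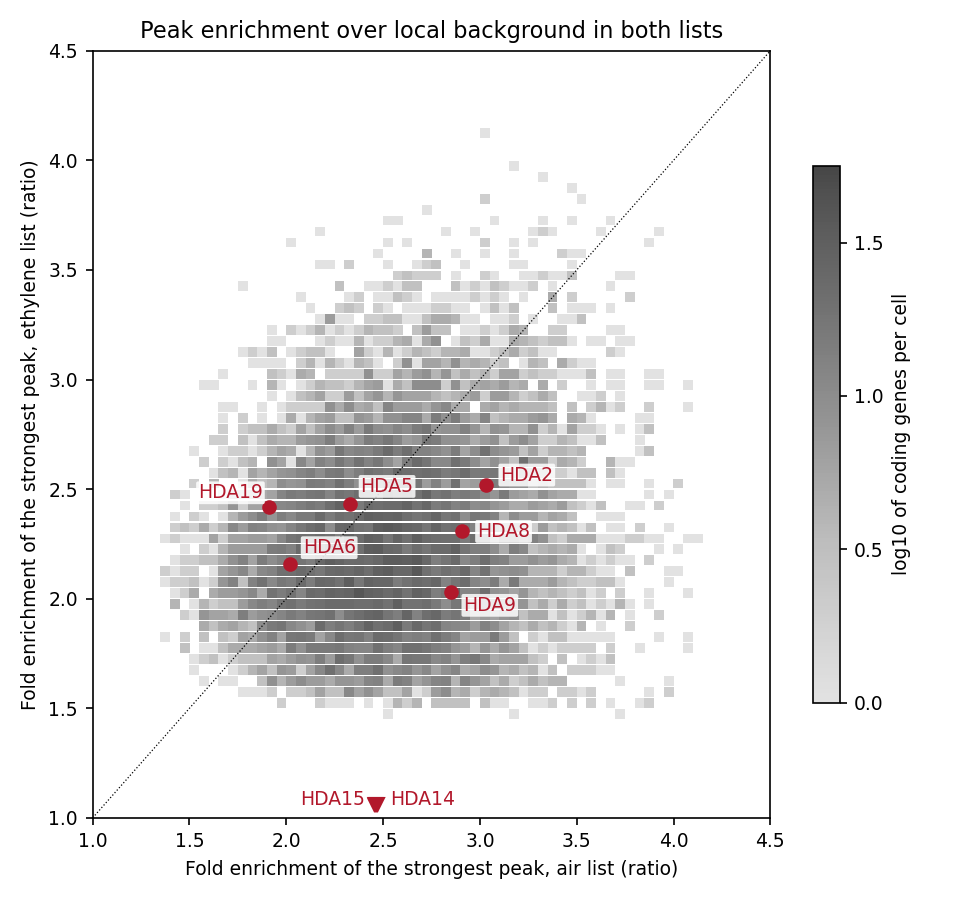
Fold enrichment (a ratio) of the strongest peak of a gene in the air list (x axis) against that in the ethylene list (y axis). Grey cells give the log10 number of coding genes with a peak in both lists, red points are the 6 deacetylase genes marked in both, red triangles at the lower edge are HDA14 and HDA15, which have no ethylene peak, and the dotted line marks equal values. HDA9, HDA8 and HDA2 lie below the line and HDA19, HDA6 and HDA5 above it.

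As a group, the marked members had values near those of coding genes in general. The median covered length was 563.0 bp in air and 382.5 bp in ethylene, beside 645.5 and 448.0 bp over all marked coding genes. The median number of summit tags was 264.0 in air and 270.0 in ethylene, beside 274.0 and 285.0. Each marked member had a single peak, whereas 19.8% of marked coding genes in air and 13.0% in ethylene had several.

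The position of the peaks was also that of coding genes at large. The summits lay 164 to 431 bp from the gene start in air, with a median of 254.5 bp beside 320 bp over all marked coding genes, and 229 to 460 bp in ethylene, with a median of 268.0 bp beside 335 bp. All member peaks began downstream of the gene start, by 24 to 242 bp in air and 102 to 359 bp in ethylene, as did 86.0% and 89.2% of the strongest peaks of coding genes. The ethylene summit lay within 40 bp of the air summit in all 6 genes with a pair of peaks.

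The promoter windows were accordingly almost free of peaks, with 26 bp covered at HDA15 and 22 bp at HDA14 in air, and none in ethylene. Neither the G-box (CACGTG), nor the GCC-box (GCCGCC), nor the telo-box (AAACCCTA) was found on either strand in the 10 windows, against 7.68%, 2.57% and 6.22% of all coding promoters. The letters TATAAA were found in those of HDA9, HDA19, HDA8 and HDA2, beside 52.1% of all promoters. The absence of these letters concerns this window alone.

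HDA10 (AT3G44660, chr3:16214964-16215785) and HDA17 (AT3G44490, chr3:16097479-16098599), short genes related to HDA9, carried no peak in either list. Only 52.2% of the 51-base words in HDA10 and 50.5% of those in HDA17 occur once in the genome, so reads of that length from the rest of these genes cannot be placed uniquely, and the part of this in the missing peaks was not tested. In HDA9 82.7% of the words are unique, and all of the first 600 are. The ethylene peak of HDA9, from 130 to 483 bp, lies within these, and its air peak, from 55 to 731 bp, runs past them.

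The corepressor partners of the deacetylases were examined in the same way, as a list of 20 genes holding the SIN3-like SNL1 to SNL6, MSI1, FVE and MSI5, HDC1, SAP18, the TOPLESS family, LUG, FLD, PWR and HOS15. All 20 were marked in air and 17 in ethylene, beside 60.9% and 46.0% of coding genes. With the air list limited to as many peaks as the ethylene list has, 16 were marked in air, beside 48.3% of coding genes. The highest summits in air were those of PWR, with 312 tags (320 in ethylene), and of SAP18 and TPL, with 310 each. At PWR that summit lay 448 bp upstream of the gene start, and PWR was not the only partner with an upstream summit. With each peak given to its nearest gene within 5 kb, 18 partners were marked in air and 16 in ethylene. By that assignment 56.7% and 42.0% of coding genes were marked. SNL5 (233 tags in air), MSI5 (192) and TPR1 (250) had no ethylene peak and were named after their values were seen.

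The partners had levels near those of the deacetylase genes. Their median number of summit tags was 261.5 in air and 268.0 in ethylene, close to the 264.0 and 270.0 of the marked members. Peaks of the partners covered a median length of 654.5 bp in the air list and 444.0 bp in the ethylene list. Over the 17 partners marked in both lists the ratio of ethylene to air had a median of 1.00 and ran from 0.917 to 1.22, so none reached the 0.806 of HDA9.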

How the data were processed

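The submitters' processing notes name Bowtie 1.1.2, SAMtools and TAIR10. The authors mapped single-end reads uniquely, merged both H3K9Ac libraries per treatment, and ran MACS2 2.1.0.20150603 at p = 0.01 without a fragment model. The deposited lists hold the pileup signal at the summit, scaled to the smaller data set, the fold enrichment ratio over local background with a pseudocount of 1, and −log10 p-values. Per the file headers no q-value was written, yet a deposited score under that name is filled in, and it served for 1 alternative.

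Pileup was divided by the scaling factor (0.301 in air, 0.0999 in ethylene), which gave whole tags within 0.05 tag for 100% of peaks. The gene models and sequences came from RefSeq TAIR10.1, and TAIR10.1 coordinates were checked on the lists: 63.9% of air peaks overlapped the first 200 bp of a coding gene, against 40.4% and 39.8% after shifts of -500 and 500 bp. The transcript with the longest coding sequence gave exons and start codons. The overlap step was tested on simulated peaks. The ratio step was tested on counts drawn under the model that the ceiling correction inverts. That test cannot show whether the model holds for the lists. Python 3.11.15, numpy 2.4.6, pandas 2.3.3, scipy 1.17.1 and matplotlib 3.10.9 were used.

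The members and lists were chosen with earlier results of these data known. The rule for named genes took all members, genes whose window a member's peak overlaps, HDA10, HDA17, any partner without an air peak, of which there were none, and those with the highest air tags. SNL5, MSI5 and TPR1 fall outside this rule. The alternatives changed the window, overlap, threshold, peak assignment, ceiling correction and scaling.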

Additional observations from a re-analysis of the deposited data

How the results depend on the processing

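No paired analysis was possible because the authors pooled the 2 H3K9Ac libraries of each treatment, so no replicate could be left out or blocked on. The 8 members in air and 6 in ethylene were found with the gene body alone, with 1000 bp upstream and with a peak within 500 bp of the start. The same counts came with an overlap of 100 bp and with the summit in the window. They also came with the nearest gene within 5 kb and with a q-value of at most 0.05. Under these settings 56.7% to 63.4% of coding genes were marked in air and 41.1% to 48.5% in ethylene. A fold enrichment of at least 2, and an air list of the same length as the ethylene list, each left 7 members in air, without HDA19, where 49.8% and 48.3% of coding genes were marked in air. HDA19 kept its ethylene peak under both settings and was then marked in ethylene alone, unlike under the main rule. In that equal-length comparison 7.48% of coding genes were marked in air and not in ethylene, and HDA14 and HDA15 still were. Partners marked in air and not in ethylene numbered 6 under that q-value limit and 8 under that fold enrichment limit, where 11 were marked in ethylene. Of all coding genes 19.8% and 19.2% were marked in air and not in ethylene under these limits, and 33.9% in ethylene under the fold enrichment limit. With the air list of equal length, 16 partners were marked in air, 17 in ethylene and 2 in air and not in ethylene, so the order of the air and ethylene counts turned. The median of summit tags over marked members was 431.7 in air and 451.3 in ethylene with the ceiling correction and 264.0 and 270.0 without it, which follows from the correction itself. Scaling by all tags before removal of duplicates, chosen after seeing the data, moved the HDA9 ratio to 0.798 and the median of regions to 1.03, and without any scaling the HDA9 ratio was 0.770. Counting error limits each ratio. The counting intervals assume independent, equally likely tag positions at a fixed point, whereas each summit was picked as the highest point of its peak. These intervals also do not cover the spread between seedlings.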
